A study of Mus musculus with 6 samples.

Results

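Fibroblastic reticular cells (FRCs) kept in medium from 4T1 cells were compared with FRCs kept in medium from FRCs themselves, called control medium here. The comparison holds 4 of the 6 libraries of the series, 2 per medium, and 15055 of 55367 gene symbols, those with enough counts in the unfiltered table. All cells were of 1 mouse FRC line and carried no stated modification. They stayed for 96 h in conditioned medium that was renewed every 48 h and held 2% serum, and the donor cells had conditioned it for 24 h in plain RPMI. 4T1 is a mouse mammary carcinoma line known to be metastatic. The third medium came from 67NR, a non-metastatic line of the same tumour, and its 2 libraries helped to estimate the spread and served for a direct test against 4T1 medium. No group received medium that no cell had conditioned, so factors released by 4T1 cells, FRC factors missing from 4T1 medium and nutrients used up by 4T1 cells cannot be told apart. Nothing in the labels tells if the 2 libraries of a medium came from separate cultures. A p-value here therefore sets a difference against the spread of these libraries, which may be technical.

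FRCs are the stromal cells of lymph nodes that enwrap the collagen conduits, hold the node's shape and feed and position lymphocytes through cytokines and chemokines. Cytokines of the IL-6 family act on fibroblasts through gp130 receptors, JAK kinases and STAT3, and SOCS proteins end the signal. IL-1, IL-17, TNF and Toll-like receptor ligands act through NF-kB, whose target genes include its own inhibitors. Fibroblasts also set the matrix around them through fibre proteins, hyaluronan, proteases and integrins.

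Total counts were 13581510 to 19262738 in control and 14471244 to 18214700 in 4T1 medium, and 1 count stood for 0.0519 to 0.0743 CPM (the usual count per library total, here over tested genes and after TMM scaling). Of 11 FRC markers, 3 (Thy1, Ccl19 and Ccl21a) had no count in any library, and the summed level of the 11 was 21830 to 22900 CPM in control and 16600 to 17120 CPM in 4T1 medium. Nearly all of that sum is Col1a1 and Col3a1, chains of type I and type III collagen, with Col1a1 at 14099 and 13536 against 6717 and 7104 CPM and Col3a1 at 7940.4 and 7469.8 against 8709 and 8735 CPM. Col1a1 fell, and Col3a1 was called higher (log2 0.18), a call lost without control replicate 1 (0.21), without control replicate 2 (0.13) and with DESeq2 size factors (0.17). Podoplanin (Pdpn), the surface glycoprotein that defines FRCs, was at 119 and 129.8 against 101 and 109.5 CPM and fell by 0.24 in log2 units (as are all sizes of rises and falls below), a call lost without control replicate 2 (-0.18) or without 4T1 replicate 1 (-0.19). In a longer list of 18 tested stromal genes, 9 rose and 4 fell, with 5 not called (median log2 0.30). Vcam1, which holds lymphocytes on stroma, was at 212 and 200.4 against 608 and 647 CPM and the alarmin Il33 at 57.7 and 50.9 against 275 and 302 CPM, rises of 1.61 and 2.40. The 9 mammary epithelial markers summed to 2.08 to 2.54 CPM in control and 0.381 to 0.879 CPM in 4T1 medium, with Epcam, Cldn4 and Esrp1 at 0 in all 6 libraries. The 8 leukocyte markers summed to 6.59 to 7.43 and 3.65 to 3.87 CPM, with Cd3e, Adgre1 and Tyrobp among those at 0. The 6 endothelial markers summed to 2.34 to 3.57 and 0.763 to 1.01 CPM with Prox1 at 0, and the 5 of smooth muscle and pericytes to 18.02 to 19.4 and 7.52 to 8.85 CPM with none at 0. The 5 adipocyte markers summed to 21.7 to 22.3 and 18.1 to 19.4 CPM with Adipoq and Plin1 at 0. Mitochondrial transcripts took 1.322 and 1.872% of counts in control and 2.107 and 2.367% in 4T1 medium. Of 12 genes that follow RNA quality, 6 rose and 1 fell, with 5 not called (median log2 0.45; 10 rose with no filter, median 0.20 without control replicate 1, 11 rose and median 0.84 without control replicate 2). These marker and RNA quality values move with the medium, and their part in the results below was not tested. In bulk RNA, fewer cells of a type and less RNA per cell cannot be told apart. Whether reads were counted by strand is not given in the sources used here, and genes that overlap another or have an antisense partner are uncertain, as are near-identical copies such as those of the Ly6, Wfdc, Sprr2 and Clca3a families.

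In 4T1 medium 2995 genes were higher and 2893 lower than in control medium (quasi-likelihood test of edgeR, Benjamini-Hochberg adjusted, threshold 0.05), that is 19.9% and 19.2% of the genes tested and 39.1% together. Without control replicate 1 the number higher was 1891, with the lone control library assumed to vary like the other groups. The median log2 fold change over all genes was 0.01. Large changes were more often rises. At least 2-fold, 815 genes (5.41%) were higher and 620 (4.12%) lower. At least 4-fold, 324 genes were higher and 205 lower, at least 16-fold 97 and 27, and at least 64-fold 44 and 5. Among the 79 genes with a mean of 1000 CPM or more the balance was the other way, with 17 higher and 38 lower. Groups did not overlap, with 4T1 higher, for 34.5% of genes, and with 4T1 lower for 32.8%. Of 45 listed acute-phase and complement genes, 17 were not tested. Of the 28 tested, 27 rose and 0 fell, with 1 not called (median log2 5.27; 15 of 16 rose in the authors' filtered table). Some of the 28 had no counts in control or 67NR medium. They passed the count filter through 4T1 medium alone, so a rise was the only call open to them. The share of rises in this list is therefore set in part by the filter. The same limit holds for members of the lists below with almost no counts in control and 67NR medium. Where per-library values are followed below by a fold change that passed, both 4T1 libraries lay on the same side of both control libraries. Acute-phase genes are named no further except where another list holds them. The gene lists counted below were drawn up by function and overlap in part. Brackets also give a list's value under an alternative (a library left out, another scaling, filter or test) where a count moved by over 1.5 times and at least 2 genes, or a median by over 1.5 times and at least 0.1 or across 0.

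**Figure D1:**
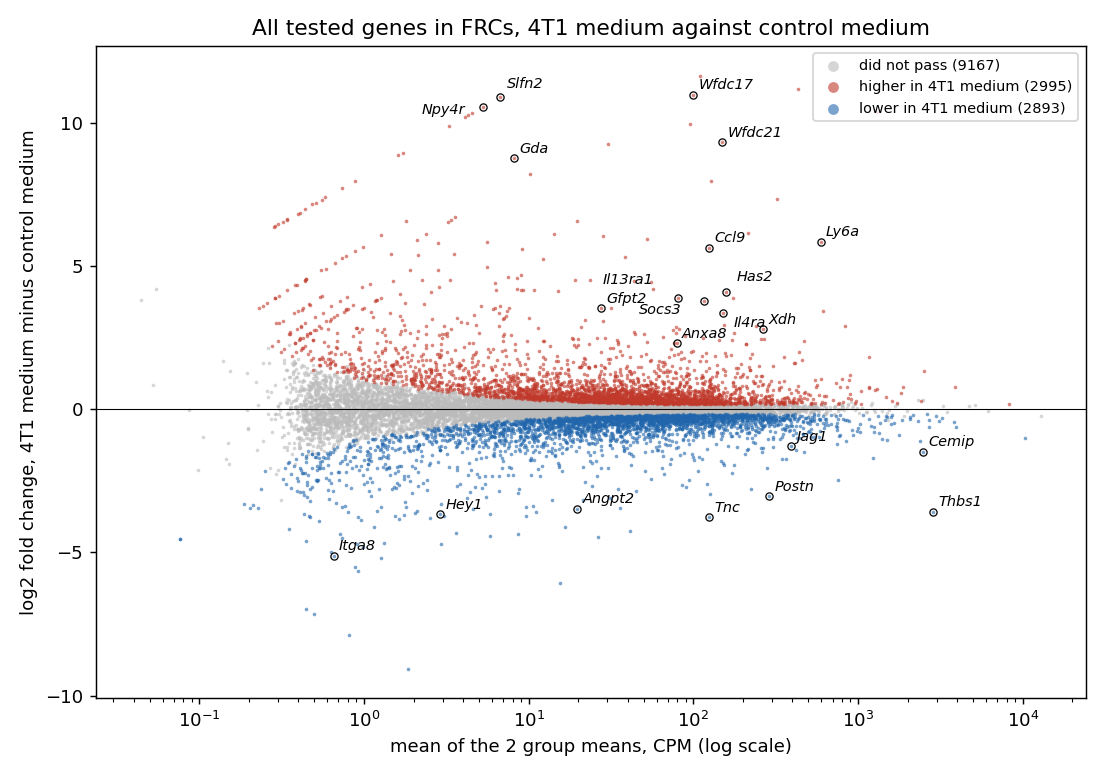
Each point is 1 of 15055 tested genes, with the mean of the control and 4T1 group means in CPM (log scale) on the x axis and the log2 fold change, 4T1 minus control medium, on the y axis. Red genes were higher (2995), blue genes lower (2893) and grey genes did not pass; ringed genes are described in the text, and for genes without counts in a group the plotted fold change depends on the prior count.

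Several of the largest rises outside the acute phase were in small secreted and surface proteins that lie side by side in the genome. Ly6a (Sca-1, chromosome 15, 74994877 to 74998031), a lipid-anchored surface protein used to mark stromal and stem cells, had 21.2 and 19.03 CPM in the control libraries and 1145 and 1186 CPM in the 4T1 libraries. Both 4T1 libraries lay far above both control libraries (log2 5.85, SE 0.09, adjusted p = 6.18e-14), and 67NR medium gave 17.7 and 19.4 CPM. Its neighbours Ly6c1, Ly6c2 and Ly6i rose by 6.18, 6.59 and 6.13, and Ly6e, on the side of Ly6i, by 1.97. At the far end of the 300 kb on either side, Ly6f and Slurp1, members of the same superfamily, fell by 2.78 and 1.81, the latter with no call without control replicate 1 (-1.42) or without 4T1 replicate 1 (-1.43). Of 10 tested genes in that window, 7 rose and 2 fell.

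On chromosome 11 a run of 6 genes from 83572919 to 83752642 was at least 4-fold higher. It begins with Ccl9, a chemokine that attracts myeloid cells through CCR1, at 4.57 and 5.35 CPM in the control libraries and 251 and 239 CPM in the 4T1 libraries. The groups lay far apart (log2 5.64, SE 0.10, adjusted p = 2.37e-13). Ccl6, a related chemokine of much lower level, was at 0.2596 and 0.149 against 2.501 and 1.63 CPM (log2 3.21, SE 0.48, adjusted p = 0.000164). At the other end Wfdc17, Wfdc18 and Wfdc21, small proteins with the disulphide core of whey acidic protein that occurs in antimicrobial protease inhibitors, reached 0.156 and 0 against 205 and 196 CPM, 1.35 and 2.08 against 106 and 98.97 CPM and 0.519 and 0.372 against 297 and 303 CPM. Wfdc17 had 3 counts in control medium, so its ratio is given with a 95% counting interval, 2180 (746 to 10570). Of 13 tested genes within 300 kb of Wfdc17, 10 rose, 2 fell and 1, Ccl5, did not pass (log2 0.69, with a call for a rise of 1.20 without 4T1 replicate 1). Intervals and floors here and below cover counting error only.

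**Figure D2:**
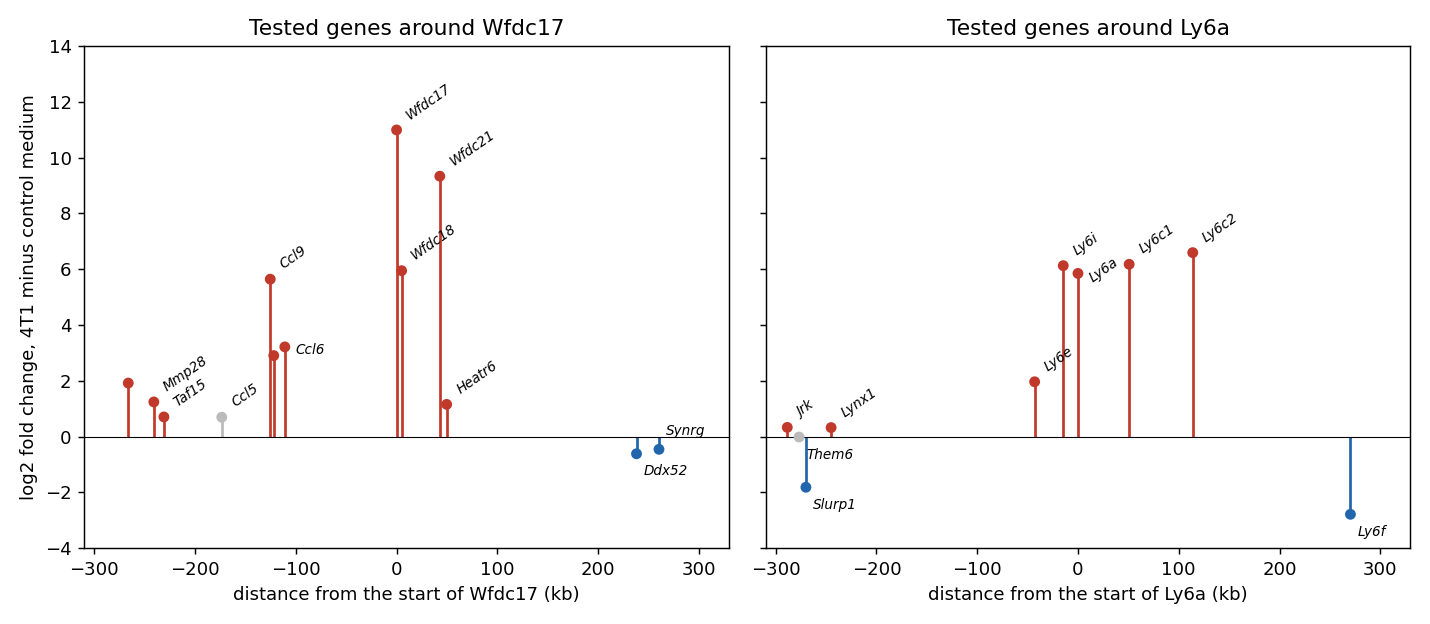
Each stem is a tested gene within 300 kb of the start of Wfdc17 (left) or Ly6a (right); the x axis is the distance between gene starts in kb, the y axis is the log2 fold change, 4T1 minus control medium, and Rik transcripts are left without a name. Red stems rose, blue stems fell and grey stems did not pass: the tall stems sit together, at 5.64 for Ccl9 up to 10.99 for Wfdc17 and at 5.85 to 6.59 for 4 Ly6 genes, while genes further out changed less.

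Of 323 genes at least 4-fold higher that have a position, 90 (27.9%) had another such gene within 100 kb, against 33 of 198 (16.7%) among those at least 4-fold lower. Of all 14724 tested genes with a position, 5.9% had a gene at least 4-fold higher that near and 3.07% one at least 4-fold lower. The 90 include 10 genes of the runs above, 15 of the acute-phase list and near-identical copies such as Sprr2a1. Npy4r, a receptor of the pancreatic polypeptide family, had no counts in control medium and 351 in 4T1 medium, at least 115.5-fold higher if the control group is set to 3 counts. It lies next to Anxa8, an annexin, at 28.2 and 24.97 against 136 and 128 CPM, and Antxrl. Jak2 lies beside Cd274, the gene of the immune checkpoint ligand PD-L1, and both rose, by 2.91 and 2.37. Among the falls, Nalcn, Itgbl1 and Fgf14 lie in a row on chromosome 14 and were called lower, Nalcn and Itgbl1 by 2.74 and 4.42. Fgf14 had 3 counts in 4T1 medium, a ratio of 9.795 in favour of control (95% counting interval 3.036 to 50.25), with no call without control replicate 1. Guanine deaminase and xanthine dehydrogenase, which act in turn in the breakdown of guanine, both rose. Guanine deaminase (Gda) went from 1 count to 544, a ratio of 536.8 with a wide 95% counting interval (95.95 to 21240), and xanthine dehydrogenase (Xdh) had 63.5 and 68.9 CPM in the control libraries and 426 and 498 CPM in the 4T1 libraries (log2 2.81, SE 0.08, adjusted p = 4.68e-11). Slfn2, a growth regulator of the Schlafen family, had no counts in control medium and 445 in 4T1 medium, at least 146.4-fold higher.

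Promoters are shown for 4 rising genes on chromosome 11 with different roles, Slfn2, Ccl9, Socs3 (the feedback inhibitor of gp130 signalling, described below) and Gfpt2 (an enzyme of the hexosamine pathway). Each line gives the 250 bases before the RefSeq start in GRCm38.p6, 5′ to 3′ on the gene's strand, with motif matches in capitals. Slfn2 spans chr11:83064862-83065111 on the plus strand and holds a C/EBP match, Ccl9 spans chr11:83578637-83578886 on the minus strand and holds AP-1 and NF-kB matches. Socs3 spans chr11:117969367-117969616 on the minus strand and holds a STAT match, and Gfpt2 spans chr11:49793905-49794154 on the plus strand and holds C/EBP, AP-1 and overlapping NF-kB matches.
Slfn2: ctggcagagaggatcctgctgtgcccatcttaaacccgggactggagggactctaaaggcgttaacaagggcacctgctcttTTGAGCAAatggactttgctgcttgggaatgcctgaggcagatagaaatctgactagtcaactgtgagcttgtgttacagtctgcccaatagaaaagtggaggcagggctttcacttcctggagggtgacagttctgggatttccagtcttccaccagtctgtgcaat
Ccl9: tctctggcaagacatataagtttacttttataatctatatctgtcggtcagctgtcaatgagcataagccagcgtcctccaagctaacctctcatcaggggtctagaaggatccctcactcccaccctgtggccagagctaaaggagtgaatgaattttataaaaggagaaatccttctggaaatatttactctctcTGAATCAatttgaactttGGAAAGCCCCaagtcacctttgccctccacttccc
Socs3: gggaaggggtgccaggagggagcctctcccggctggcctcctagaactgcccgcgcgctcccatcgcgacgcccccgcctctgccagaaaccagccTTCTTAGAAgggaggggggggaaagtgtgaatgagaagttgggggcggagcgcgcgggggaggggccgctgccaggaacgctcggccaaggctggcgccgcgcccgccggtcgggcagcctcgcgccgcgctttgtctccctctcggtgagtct
Gfpt2: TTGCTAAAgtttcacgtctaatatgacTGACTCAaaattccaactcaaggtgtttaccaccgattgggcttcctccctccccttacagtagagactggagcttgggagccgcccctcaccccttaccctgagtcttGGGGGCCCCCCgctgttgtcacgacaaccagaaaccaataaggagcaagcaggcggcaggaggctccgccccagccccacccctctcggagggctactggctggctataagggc

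The matches were counted in 300-base promoters (250 before to 50 after the start) on both strands. The C/EBP motif TTGCNNAA stood in 21.6% of the promoters of genes at least 4-fold higher, in 14.9% of those at least 4-fold lower and in 8.48% of the promoters of all tested genes. The AP-1 motif TGANTCA stood in 14.5, 7.14 and 5.12%, the STAT motif TTCNNNGAA in 12.4, 5.36 and 6.78%, and the NF-kB consensus in 14.1, 8.93 and 10.4%. The consensus of the interferon-stimulated response element stood in 7.07, 3.57 and 3.03%. Over all promoters of the reference, of tested genes or not, the shares were 10.8% for C/EBP, 7.81% for AP-1 and 8.3% for STAT. For NF-kB and the interferon element they were 8.46 and 3.44%. Matches of the motifs can overlap one another, and promoters were found for 216 of 324, 128 of 205 and 9983 of 15055 genes. The shares describe letters in these windows and were not tested.

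Among chemokine genes more rose than fell, and Cxcl12, abundant in stroma, was not called. Of 16 tested CXC and CC chemokines and their atypical receptors, 8 rose and 5 fell, with 3 not called (median log2 0.58), against 19.9% higher and 19.2% lower among all genes. Cxcl12, which retains lymphocytes and monocytes in tissue, was at 6088 and 6496 against 5866 and 6144 CPM and did not pass (log2 -0.07, SE 0.07, adjusted p = 0.453). Its scavenging receptor Ackr3 had 12.8 and 10.6 CPM in the control libraries and 55.4 and 59.9 CPM in the 4T1 libraries (log2 2.29, SE 0.12, adjusted p = 1.26e-08). Besides Ccl9, described above, the largest rises were in Cxcl5, Ccl2, Ccl7 and Cxcl1, by 6.06, 2.65, 2.55 and 2.45. Cxcl16, a transmembrane chemokine for T cells, rose by 2.02. The falls included Cmklr1, the receptor of the leukocyte attractant chemerin, at 33.3 and 29.95 against 1.28 and 2.29 CPM, and the chemokines Cxcl15 and Ccl17, by 2.73 and 3.12. Ackr4, which scavenges Ccl19 and Ccl21, had 14 counts in each control library and none in 4T1 medium, at least 9.46-fold lower. The membrane-bound chemokine Cx3cl1 fell by 0.36. The monocyte growth factor Csf1 was at 624 and 685 against 577 and 595 CPM and did not pass (log2 -0.16, SE 0.07, adjusted p = 0.0886), although it passed as lower without 4T1 replicate 2 (-0.19).

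Most genes of the IL-6 family and its receptors rose. Of 11 tested members, 7 rose and 0 fell, with 4 not called (median log2 0.78), and without 4T1 replicate 1 the number that fell was 1. The oncostatin M receptor Osmr had 211 and 216 CPM in the control libraries and 646 and 756 CPM in the 4T1 libraries. Both 4T1 libraries lay well above both control libraries (log2 1.72, SE 0.08, adjusted p = 2.11e-09). The shared chain gp130 (Il6st) was at 624 and 629 against 996 and 1158 CPM (log2 0.78, SE 0.07, adjusted p = 3.16e-06), and Il6 itself, the ligand, rose by 5.33. Clcf1, a gp130 ligand of the CNTF branch, rose by 1.18, and the receptors Il6ra and Il27ra by 0.91 and 1.04. Lif, a further gp130 ligand, did not pass, at log2 0.32.

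The receptor chains for IL-4 and IL-13 also rose. The IL-4 receptor chain Il4ra had 26.2 and 27.1 CPM in the control libraries and 253 and 296 CPM in the 4T1 libraries, and its partner Il13ra1, with which it forms the receptor for IL-4 and IL-13 on non-haematopoietic cells, had 10.5 and 9.88 CPM in the control libraries and 146 and 156 CPM in the 4T1 libraries. In both genes the groups lay wide apart (log2 3.37, SE 0.09, adjusted p = 1.69e-11 for Il4ra and log2 3.88, SE 0.09, adjusted p = 5.19e-12 for Il13ra1). Direct tests against 67NR medium passed as well, at log2 2.28 and 3.24. Of 16 tested genes of the IL-4, IL-13, IL-10 and interferon receptor list, 6 rose and 3 fell, with 7 not called (median log2 0.31). The interferon receptor chain Ifnar2 rose by 1.17. Il15, a survival factor of NK and memory T cells, and Il34, a ligand of the Csf1 receptor besides Csf1, fell by 2.28 and 1.25.

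Of 19 receptors and decoys for IL-1, IL-17 and TNF, 10 rose and 4 fell, with 5 not called (median log2 0.46). Il1r1, the signalling IL-1 receptor, was at 35.7 and 41.8 against 140.1 and 169 CPM (log2 2.00, SE 0.10, adjusted p = 5.42e-09), and Il17ra, the common IL-17 receptor chain, at 46.4 and 42.1 against 142 and 145 CPM (log2 1.70, SE 0.08, adjusted p = 4.76e-09). The TNF receptor Tnfrsf1a rose by 1.13 and the death receptor Fas by 1.24. The IL-1 antagonist Il1rn rose by 1.24. Falls were in Tnfrsf21 (death receptor 6), by 1.65, in Il17rd, by 1.45, in the second IL-17 receptor chain Il17rc, by 0.42, and in the RANKL decoy Tnfrsf11b (osteoprotegerin), by 0.50. RANKL itself (Tnfsf11), a cytokine of lymph node organiser cells, rose, at 1.25 and 0.892 against 8.65 and 8.497 CPM.

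In the signalling chain behind these receptors, Jak2 and Socs3 stood out by size. Of 24 JAK, STAT and SOCS genes, 13 rose and 1 fell, with 10 not called (median log2 0.26; 3 fell without 4T1 replicate 2). Socs3 had 17.1 and 14.3 CPM in the control libraries and 211 and 224 CPM in the 4T1 libraries. Both 4T1 libraries lay far above both control libraries and the groups did not overlap (log2 3.78, SE 0.09, adjusted p = 1.02e-11), and 67NR medium gave 19.6 and 17.5 CPM. Jak2, the kinase of several cytokine receptors, had 57.1 and 54.6 CPM in the control libraries and 386 and 456 CPM in the 4T1 libraries (log2 2.91, SE 0.09, adjusted p = 3.45e-11), and Jak3 rose by 1.59. Stat3 was at 184 and 186 against 319.6 and 352 CPM (log2 0.86, SE 0.07, adjusted p = 4.53e-07). Socs2, an inhibitor of growth hormone signalling, did not pass, at log2 -0.01, and was lower than in 67NR medium by the direct test, at -1.34. The phosphatase Ptpn1, which acts on Jak2, rose by 0.90. The SUMO ligase Pias3, an inhibitor of Stat3, fell by 0.44.

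More NF-kB genes rose than fell. Of 28 subunits and inhibitors, 15 rose and 2 fell, with 11 not called (median log2 0.27). The nuclear inhibitor-like cofactors Nfkbiz and Bcl3 were at 17.9 and 19.8 against 127 and 151 CPM and 6.49 and 5.43 against 46.8 and 54.8 CPM, which is log2 2.89 and 3.08. The RNase Zc3h12a (regnase-1), which degrades cytokine mRNA, rose by 2.48, the inhibitor Nfkbia by 1.16 and the subunit Relb by 1.46. Tnfaip3 (A20), a ubiquitin-editing inhibitor of the pathway, went the other way, at 188 and 196 CPM in the control libraries and 75.2 and 91.1 CPM in the 4T1 libraries. Both 4T1 libraries lay below both control libraries and below 67NR medium (log2 -1.21, SE 0.08, adjusted p = 1.43e-07). Rela rose by 0.27 and lost its call without control replicate 2 (0.24).

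AP-1 factors rose more often than they fell. Of 22 AP-1 and immediate early factors, 15 rose and 2 fell, with 5 not called (median log2 0.89). Junb was at 154 and 154 against 559 and 544 CPM (log2 1.84, SE 0.06, adjusted p = 1.42e-10) and the early response gene Ier3 at 72.6 and 72.8 against 268 and 268 CPM (log2 1.88, SE 0.07, adjusted p = 2.28e-10), while Jun itself fell by 0.65 and the related Maf by 1.23. Of 19 C/EBP and KLF factors, 7 rose and 4 fell, with 8 not called (median log2 0.08), with Cebpb, the C/EBP of inflammation and macrophages, at 25.02 and 26.6 against 135 and 120.3 CPM and Cebpd at 88.7 and 100.4 against 373 and 351 CPM. These are rises of 2.31 and 1.94, and Klf2, which restrains inflammation in endothelium, fell by 1.24. Of 38 mesenchymal factors, 12 rose and 12 fell, with 14 not called (median log2 -0.10). Runx1, a regulator of blood and stromal fate, had 8.15 and 7.73 CPM in the control libraries and 39.7 and 48.97 CPM in the 4T1 libraries (log2 2.48, SE 0.13, adjusted p = 6.79e-09), and Snai1 rose by 1.46, while the fibroblast factors Prrx1 and Osr1 fell by 0.51 and 0.79. Of 23 MAPK phosphatases, sproutys and related genes, 12 rose and 2 fell, with 9 not called (median log2 0.28), led by the kinase Map3k8 (log2 2.39), the ERK phosphatase Dusp6 (1.76) and Spry2 (1.59).

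**Figure D3:**
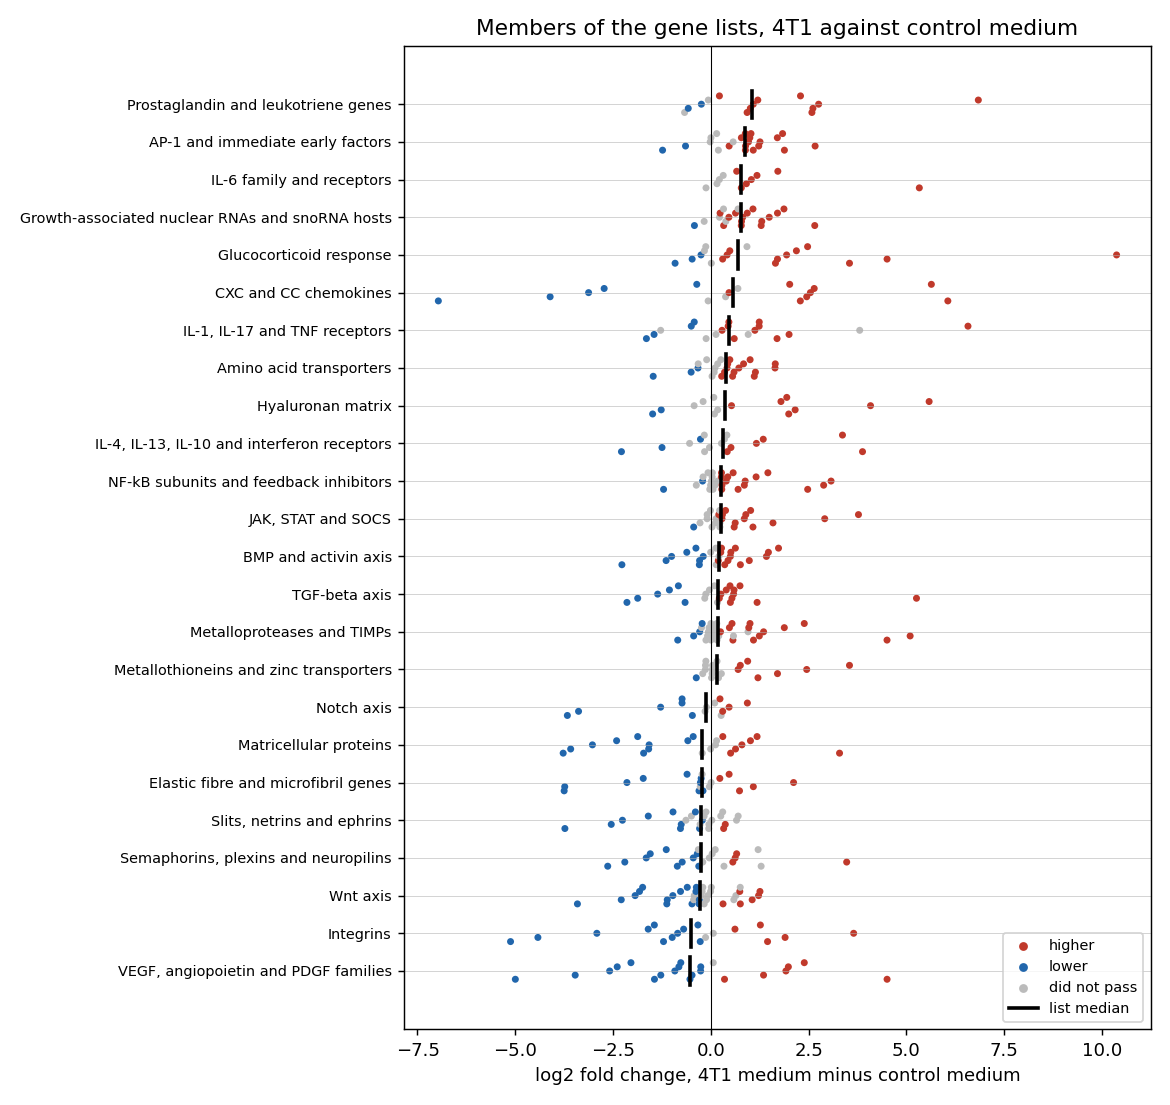
Each row is 1 of 24 gene lists chosen from those counted, ordered by its median, and each point a tested member with its log2 fold change, 4T1 minus control medium, on the x axis; points are spread vertically only to separate them, red rose, blue fell, grey did not pass, and the black bar is the list median. Medians of the lists drawn run from -0.53 for VEGF, angiopoietin and PDGF families to 1.05 for prostaglandin and leukotriene genes, against 0.01 over all genes, and members of most lists lie on both sides of 0.

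In the families that signal to vessels and growing axons, more members fell than rose, except among the neurotrophic genes. Of 21 genes of the VEGF, angiopoietin and PDGF families, 6 rose and 14 fell, with 1 not called (median log2 -0.53). Angpt2, which loosens vessel walls by opposing Tie2, had 38.1 and 33.9 CPM in the control libraries and 3.58 and 2.996 CPM in the 4T1 libraries, against 151 and 149 CPM in 67NR medium. The 4T1 libraries were the lowest of the 3 media (log2 -3.47, SE 0.12, adjusted p = 2e-10 against control and log2 -5.52, SE 0.11, adjusted p = 1.18e-12 against 67NR). Angpt1 fell by 2.59, and Pdgfrb, a receptor of mural cells and FRCs, by 0.77. The 6 rises were in Vegfa, the main growth factor of blood vessels, at 91.4 and 83.5 against 227 and 220.2 CPM (log2 1.35, SE 0.07, adjusted p = 6.03e-09), Vegfc, which drives lymphatic growth, at 3.997 and 3.79 against 20.5 and 20.5 CPM (log2 2.39, SE 0.13, adjusted p = 1.61e-08), the lipase inhibitor Angptl4 (log2 4.51), its relatives Angptl2 (0.35) and Angptl6 (1.98), and Pdgfra (1.92). Angptl2 lost its call without control replicate 2 (0.26) and without 4T1 replicate 2 (0.21). Of 22 semaphorins, plexins and neuropilins, 4 rose and 10 fell, with 8 not called (median log2 -0.26; median -0.05 without control replicate 1), with Sema3a, a repellent cue, at 148 and 148 against 21.8 and 25.6 CPM and its co-receptor family member Nrp2 at 151 and 149 against 47.5 and 48.2 CPM. Of 24 slits, netrins and ephrins, 2 rose and 10 fell, with 12 not called (median log2 -0.24), with Slit3 and Epha7 lower by 2.26 and 2.54. Among 12 neurotrophic genes, 4 rose and 3 fell, with 5 not called (median log2 -0.05). Gdnf and its receptor Gfra1 rose by 2.09 and 2.38. The largest change in this list was a fall of 6.06 in Ndnf, from a mean of 30.7 CPM in control to 0.454 CPM in 4T1 medium.

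Wnt and Notch genes also fell more often than they rose. Of 34 Wnt genes, 6 rose and 15 fell, with 13 not called (median log2 -0.27). The ligands Wnt2, Wnt11 and Wnt5a fell by 2.29, 3.41 and 0.48, the enhancer Rspo2 by 1.93, and the target Axin2 by 1.82. Others rose, among them the ligand Wnt4 by 0.74, the enhancer Rspo3 by 1.22 and the receptor Fzd7 by 1.26. The secreted antagonists diverged, with Sfrp2 at 3275 and 3240.3 against 1529.6 and 1484 CPM and Sfrp1 at 393 and 376 against 721 and 882 CPM. Of 14 Notch genes, 4 rose and 6 fell, with 4 not called (median log2 -0.13; 2 rose without control replicate 2 and without 4T1 replicate 2). The ligand Jag1 had 555 and 558 CPM in the control libraries and 222 and 236 CPM in the 4T1 libraries, and the targets Hey1 and Hey2 5.87 and 4.91 against 0.2704 and 0.545 CPM and 19.9 and 19.2 against 1.96 and 1.797 CPM. In all 3 genes the 4T1 libraries were the lower (log2 -1.28, SE 0.07, adjusted p = 7.93e-09 for Jag1, log2 -3.67 for Hey1 and -3.38 for Hey2). Rbpj, the DNA-binding partner of Notch, rose by 0.94.

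Of 22 TGF-beta genes, 11 rose and 6 fell, with 5 not called (median log2 0.20). The ligands Tgfb2 and Tgfb3 fell by 1.36 and 2.14, the receptor Tgfbr2 by 0.83, and the targets Ccn2 and Pmepa1 by 1.87 and 1.06. The ligand Tgfb1 and the receptors Tgfbr1 and Tgfbr3 rose, by 0.49, 0.58 and 1.19. Ltbp2, a microfibril protein named for its kinship to TGF-beta binding proteins, had 0.415 and 0.892 CPM in the control libraries and 21.2 and 26.3 CPM in the 4T1 libraries (log2 5.26, SE 0.30, adjusted p = 2.31e-08). Of 25 BMP and activin genes, 13 rose and 8 fell, with 4 not called (median log2 0.21; 5 fell without control replicate 1, 4 fell without control replicate 2), with the ligand Bmp4 at 271 and 293 against 141 and 140.4 CPM and the extracellular antagonists Bmper and Grem1 higher by 1.47 and 1.73. The listed BMP targets moved both ways, with Id1 and Id3 higher by 0.50 and 0.36 and Id2 and Smad6 lower by 0.29 and 1.14. Of 15 IGF genes, 4 rose and 5 fell, with 6 not called (median log2 -0.19; 8 fell with no filter). Igf1 fell by 2.72, and so did Pappa and Pappa2, the proteases that free IGF from its binding proteins, by 1.90 and 2.01, while their inhibitor Stc2 rose by 2.05. Of 20 FGF, HGF and EGF genes, 6 rose and 7 fell, with 7 not called (median log2 0.25; median 0.09 without control replicate 1, median 0.39 without control replicate 2). Hgf, the ligand of Met, was at 0.363 and 0.149 against 6.15 and 6.59 CPM (log2 4.51, SE 0.33, adjusted p = 2.48e-07), Met fell by 0.63, and Fgf18 and Nrg1 fell by 3.81 and 1.49.

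Among matrix genes, matricellular and elastic fibre genes fell more often than they rose, and hyaluronan genes rose more often than they fell. Of 21 matricellular genes, 7 rose and 10 fell, with 4 not called (median log2 -0.22; median -0.09 without 4T1 replicate 1, median -0.39 without 4T1 replicate 2, median -0.11 over the 4 libraries alone). Thrombospondin 1 (Thbs1, chromosome 2, 118111876 to 118127133), which activates latent TGF-beta and binds CD47 and CD36, had 5194 and 5359 CPM in the control libraries and 381 and 499.6 CPM in the 4T1 libraries. The 4T1 libraries lay far below both control libraries (log2 -3.58, SE 0.11, adjusted p = 5.51e-11), and 67NR medium gave 3923 and 4144 CPM. In CPM this was the largest drop of any called gene except Col1a1, a chain of type I collagen. Tenascin C (Tnc) was at 219 and 246 against 14.7 and 19.01 CPM and periostin (Postn) at 529 and 494 against 63.7 and 61.9 CPM, falls of 3.77 and 3.03. Thrombospondin 2 (Thbs2) instead rose, at 569 and 528 against 1189.8 and 1303 CPM, with 1301 and 1254 CPM in 67NR medium. Osteopontin (Spp1) rose by 3.29. Fibronectin (Fn1) was at 13533 and 14048 against 10612 and 13105 CPM and did not pass (log2 -0.22, SE 0.10, adjusted p = 0.0972), with a call for a fall without 4T1 replicate 2 (-0.39).

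Of 18 elastic fibre and microfibril genes, 5 rose and 9 fell, with 4 not called (median log2 -0.23), with elastin (Eln) at 16.9 and 18.8 against 1.35 and 1.31 CPM, fibulin 5 (Fbln5), which assembles elastic fibres, at 551 and 570.3 against 173 and 166 CPM and fibulin 1 (Fbln1) at 27.7 and 27.3 against 119 and 120.2 CPM. Eln and Fbln5 fell by 3.73 and 1.73, and Fbln1 rose by 2.12. Of 13 small leucine-rich proteoglycans, 3 rose and 4 fell, with 6 not called (median log2 0.11; median -0.10 without control replicate 2, median -0.02 without 4T1 replicate 2), with fibromodulin (Fmod) and osteoglycin (Ogn) lower by 2.97 and 1.33 and biglycan (Bgn) and decorin (Dcn) higher by 1.22 and 1.97. All of these bind collagen fibrils. Of 18 basement membrane genes, 4 rose and 7 fell, with 7 not called (median log2 0.01; median -0.0014 with DESeq2 size factors, median -0.02 in the authors' filtered table, 3 fell and median -0.001 without control replicate 1, 4 fell and median -0.0016 without control replicate 2 and by DESeq2's Wald test, median -0.15 without 4T1 replicate 2). Lama4 rose by 1.82, while Col4a1 and Col4a2, the network collagens, fell by 0.80 and 0.49.

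Of 14 genes of the hyaluronan matrix, 7 rose and 2 fell, with 5 not called (median log2 0.35; median 0.14 in the authors' filtered table, median 0.18 over the 4 libraries alone and in libraries thinned to the smallest). The synthase Has2, a membrane enzyme that extrudes hyaluronan, had 17.1 and 18.1 CPM in the control libraries and 277 and 319.6 CPM in the 4T1 libraries (log2 4.09, SE 0.11, adjusted p = 2.33e-11). Both 4T1 libraries lay far above both control libraries, and 67NR medium gave 19.97 and 15.6 CPM. Several proteins that bind hyaluronan rose, with versican (Vcan) at 175 and 177 against 602 and 796 CPM, the heavy chain Itih2 at 12.8 and 10.999 against 52.05 and 54.9 CPM, Tnfaip6, which transfers heavy chains onto hyaluronan, at 0.986 and 1.41 against 4.33 and 4.68 CPM, and lubricin (Prg4) at 0.2596 and 0.5202 against 16.1 and 19.7 CPM. The receptor Cd44 rose by 0.53, and Hmmr, which binds hyaluronan and also serves the mitotic spindle, fell by 1.27. The depolymerase Cemip had 3655 and 3698 CPM in the control libraries and 1200.4 and 1423 CPM in the 4T1 libraries (log2 -1.49, SE 0.08, adjusted p = 1.83e-08), with both 4T1 libraries below both control libraries. Gfpt2, which starts the supply of amino sugars, had 3.84 and 5.13 CPM in the control libraries and 45.7 and 55.1 CPM in the 4T1 libraries (log2 3.52, SE 0.14, adjusted p = 8.65e-10), while its more abundant relative Gfpt1 fell by 0.31.

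**Figure D4:**
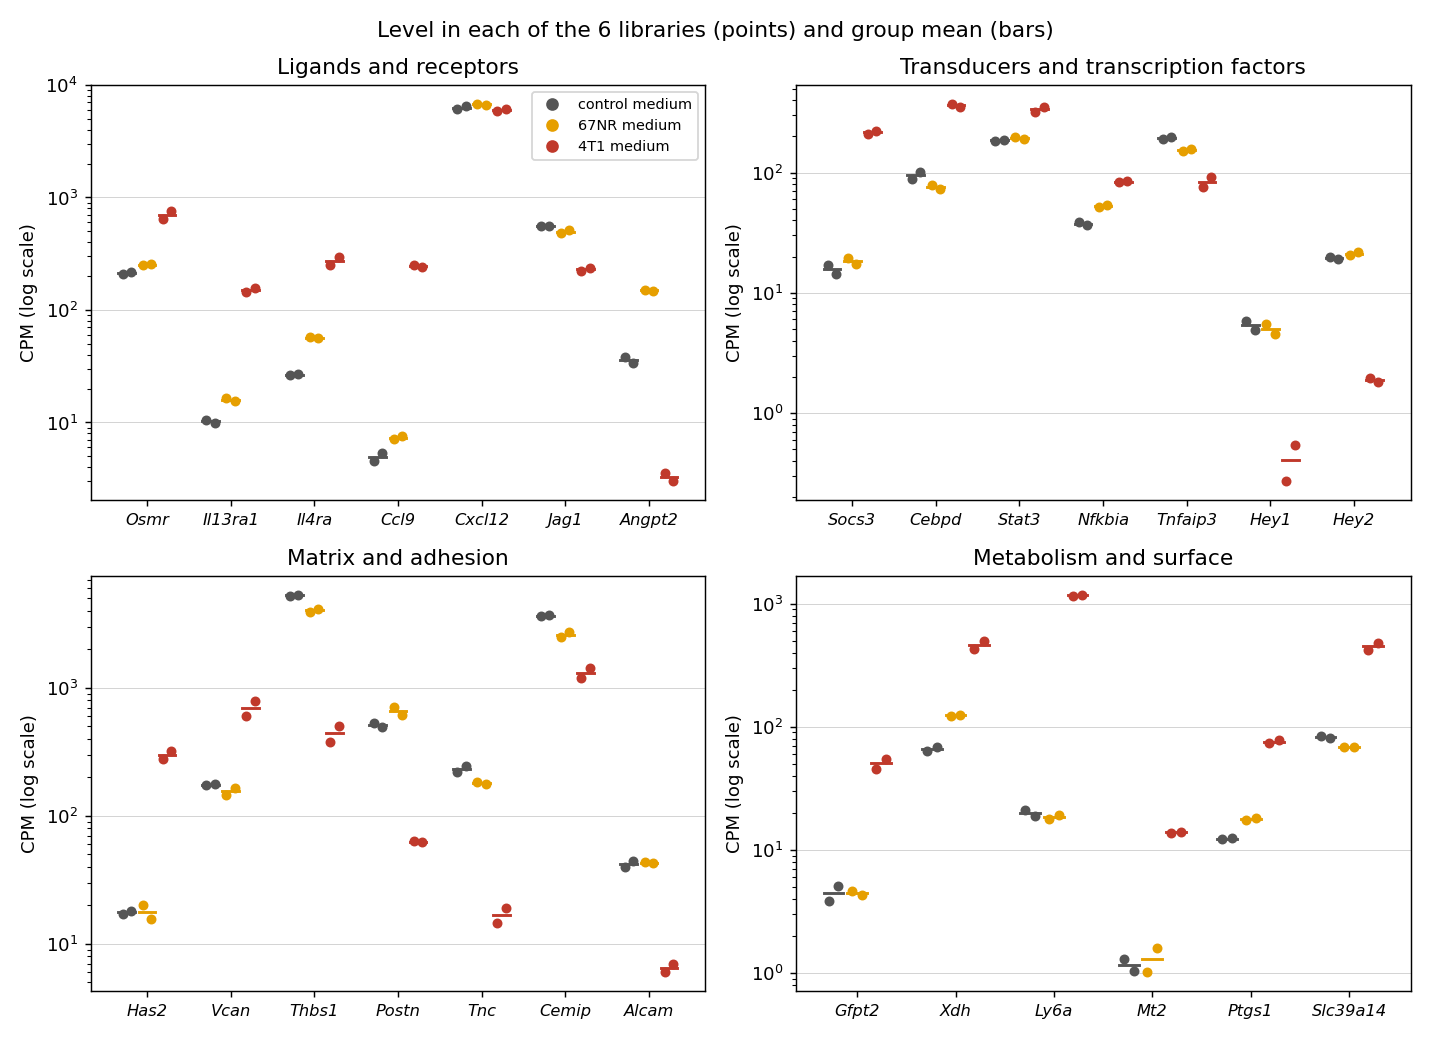
Points are the levels in each of the 6 libraries in CPM (log scale), grey for control, orange for 67NR and red for 4T1 medium, and short bars are the means of the 2 libraries, for genes of 4 roles. The 4T1 points of Has2, Il13ra1, Socs3 and Ly6a stand above both other media, those of Thbs1, Postn, Tnc and Hey2 below both, and those of Cxcl12 overlap with the control points.

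Metalloproteases rose more often than they fell, and genes of plasminogen activation did not. Of 32 metalloproteases and TIMPs, 13 rose and 4 fell, with 15 not called (median log2 0.18; 2 fell without control replicate 1 and without control replicate 2), with Adam12, Mmp19 and Mmp28 higher by 1.88, 1.35 and 1.24, Timp1 by 2.39, and the matrix-bound inhibitor Timp3 at 1703 and 1751 against 950.3 and 973 CPM, a fall of 0.84. Of 16 genes of plasminogen activation, 5 rose and 7 fell, with 4 not called (median log2 -0.16; median -0.26 without control replicate 1). The urokinase Plau fell by 0.62 and its receptor Plaur rose by 0.98, and the inhibitor Serpine2 rose by 1.58. The cysteine and aspartyl proteases of lysosomes, cathepsins B, D and L (Ctsb, Ctsd and Ctsl), rose by 1.05, 0.80 and 0.61, among 15 cathepsins and cystatins of which 6 rose and 4 fell, with 5 not called (median log2 0.18; median 0.06 without 4T1 replicate 1, median 0.28 without 4T1 replicate 2).

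Most integrins fell, while other adhesion genes moved both ways. Of 18 integrin genes, 5 rose and 11 fell, with 2 not called (median log2 -0.51; 3 rose without control replicate 1). Itga4 and Itga9, partners of Itgb1 that bind Vcam1 and tenascin C, were at 14.2 and 16.4 against 1.83 and 2.18 CPM and 44.02 and 40.1 against 13.99 and 13.8 CPM, and both fell (-2.91 for Itga4). Itgb1 fell by 0.27, whereas Itgb8, which activates latent TGF-beta, rose by 1.27. Itga8 had 42 counts in control medium and 1 in 4T1 medium, a ratio of 42.56 in favour of control (95% counting interval 7.232 to 1721). Of 22 cadherins and immunoglobulin adhesion molecules, 8 rose and 7 fell, with 7 not called (median log2 -0.03; median 0.0008 with library totals alone, median -0.17 without control replicate 1, median 0.02 without control replicate 2). P-selectin (Selp), known from platelets and endothelium, was at 21.4 and 21.3 against 123 and 148 CPM (log2 2.67, SE 0.10, adjusted p = 2.94e-10), the nectin Nectin2 rose by 1.80, and Alcam, which binds CD6 on T cells, had 39.97 and 44.7 CPM in the control libraries and 6.02 and 6.97 CPM in the 4T1 libraries (log2 -2.69, SE 0.11, adjusted p = 8.62e-10). Cdh11, the cadherin of fibroblasts, fell by 0.91.

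Prostaglandin genes had the highest list median outside the acute phase. Of 14 prostaglandin and leukotriene genes, 10 rose and 2 fell, with 2 not called (median log2 1.05). The phospholipase Pla2g4a, which frees arachidonate, rose by 1.09, both cyclooxygenases Ptgs1 and Ptgs2 by 2.61 and 2.76, the prostacyclin synthase Ptgis by 1.20, and the prostaglandin E2 receptor Ptger4 by 2.59. The prostaglandin importer Slco2a1, which clears the product, had 71.6 and 70.7 CPM in the control libraries and 318 and 380.5 CPM in the 4T1 libraries (log2 2.30, SE 0.08, adjusted p = 3.25e-10). Of 25 genes of sphingosine, lysophosphatidate and purine signalling, 10 rose and 6 fell, with 9 not called (median log2 0.41; median 0.23 without control replicate 2). The kinase Sphk1, which makes sphingosine 1-phosphate, and its receptor S1pr1 rose by 2.45 and 2.24, and the exporter Spns2, needed for lymph sphingosine 1-phosphate, fell by 2.72. The adenosine receptor Adora2b was at 1.61 and 1.11 against 13.6 and 11.7 CPM and adenosine deaminase (Ada) at 38.2 and 38.5 against 9.67 and 10.9 CPM, log2 changes of 3.16 and -1.89.

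Of 19 metallothioneins and zinc transporters, 7 rose and 1 fell, with 11 not called (median log2 0.16), and of 22 iron genes, 8 rose and 4 fell, with 10 not called (median log2 0.25; median 0.12 without control replicate 2, 2 fell and median 0.13 without 4T1 replicate 1). The zinc and iron importer Slc39a14 (ZIP14) had 83.6 and 81.5 CPM in the control libraries and 422 and 483 CPM in the 4T1 libraries (log2 2.45, SE 0.08, adjusted p = 5.88e-11). The metalloreductase Steap4 was at 0.104 and 0.0743 against 55.8 and 66.2 CPM, a ratio of 671.4 with 3 counts in control medium (95% counting interval 229.4 to 3258), and the iron exporter Slc40a1 (ferroportin) fell by 2.01. Mt1 and Mt2, which bind zinc and copper, rose by 1.71 and 3.55. Of the ferritin chains, which store iron, Fth1 rose by 1.34. Ftl1 was called lower (log2 -0.48), a call lost under several alternatives, among them without control replicate 1 (-0.16), without 4T1 replicate 1 (-0.49) and without 4T1 replicate 2 (-0.49). The transferrin receptor Tfrc fell by 0.32 and lost its call without control replicate 2 (-0.22) and without 4T1 replicate 1 (-0.17).

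Of 21 retinoid genes, 10 rose and 5 fell, with 6 not called (median log2 0.28; 6 rose without control replicate 2 and without 4T1 replicate 1). Enzymes on the way to retinoic acid moved in different directions and at unlike levels. Aldh1a1 was at 373 and 408 against 59.4 and 53.3 CPM, and Aldh1a3 at 0.571 and 1.11 against 5.07 and 4.68 CPM. The retinol dehydrogenase Rdh10 was at 7.68 and 8.25 against 36.8 and 40.5 CPM. Aldh1a1 fell by 2.79, and Aldh1a3 and Rdh10 rose by 2.59 and 2.29. The related Aldh1a7 fell by 4.26, from a mean of 78.5 to 4.14 CPM. Of 24 amino acid transporters, 14 rose and 3 fell, with 7 not called (median log2 0.39), with the glutamine carriers Slc38a2 and Slc1a5 higher by 1.01 and 1.11. Of 27 enzymes of serine, one-carbon, proline and arginine metabolism, 13 rose and 2 fell, with 12 not called (median log2 0.33). Inducible nitric oxide synthase (Nos2) had no counts in control medium and 114 in 4T1 medium, at least 37.5-fold higher. Mitochondrial superoxide dismutase (Sod2) rose by 1.69. Of 31 genes of fatty acid use, 8 rose and 11 fell, with 12 not called (median log2 -0.10; 7 fell without control replicate 1 and without control replicate 2). Fabp5 fell by 2.61, from a mean of 207.5 to 34.1 CPM, and Plin4 by 1.42, while the triglyceride enzyme Dgat2 rose by 2.40.

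Of 18 genes that glucocorticoids are known to regulate or that mediate their action, 11 rose and 3 fell, with 4 not called (median log2 0.71). The kinase Sgk1 had 34.4 and 35.1 CPM in the control libraries and 178 and 208 CPM in the 4T1 libraries (log2 2.48, SE 0.09, adjusted p = 4.18e-10), and the receptor Nr3c1 209.9 and 218 against 144 and 164 CPM (log2 -0.48, SE 0.07, adjusted p = 0.000171). Fkbp5, a widely used marker of glucocorticoid action, was at 20.8 and 19.2 against 17.6 and 18.2 CPM and did not pass (log2 -0.16, SE 0.10, adjusted p = 0.227). Members such as Lcn2, Mt2 and Angptl4 stand in other lists too. Of 18 clock genes, 10 rose and 2 fell, with 6 not called (median log2 0.31), with Bhlhe40 and Arntl2 higher by 1.47 and 1.77 and Bhlhe41 lower by 1.77. Npas2 went from 1 count to 63, and its ratio was 62.17 (95% counting interval 10.76 to 2494). Of 21 nuclear noncoding RNAs and snoRNA hosts, 15 rose and 1 fell, with 5 not called (median log2 0.78). The snoRNA hosts Gas5, Zfas1 and Snhg12, whose spliced RNAs are cleared by nonsense-mediated decay, rose by 0.93, 1.30 and 1.87, and replicate 1 of 4T1 medium was above replicate 2 for each. Of 28 cyclin and CDK inhibitor genes, 8 rose and 14 fell, with 6 not called (median log2 -0.24; 5 rose without control replicate 1), with the antiproliferative Btg1 higher by 1.15 and Cdkn2a, a senescence marker, lower by 0.64.

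Direct tests of 4T1 against 67NR medium called 43.4% of all genes, 23.5% higher and 19.9% lower in 4T1 medium. Socs3, Jak2, Has2, Ly6a and Ccl9 were higher in 4T1 than in 67NR medium, by 3.55, 2.80, 4.06, 5.98 and 5.06. Thbs1, Tnc, Postn, Hey2 and Eln were lower, at -3.19, -3.40, -3.40, -3.50 and -4.66. Other genes were called against control but not between the tumour media. They included Serpine2 (log2 0.11, SE 0.06, adjusted p = 0.17), Thbs2 (log2 -0.03, SE 0.07, adjusted p = 0.724), Il6ra (log2 0.12, SE 0.12, adjusted p = 0.43) and Malat1 (log2 0.03, SE 0.15, adjusted p = 0.909), for which a p above the threshold does not show equal levels.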

How the data were processed

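Directional poly(A) libraries were made from 500 ng of RNA of the FRC line, per the labels' protocols. The authors deposited raw counts per gene symbol, in an unfiltered table, used here, and a filtered one with equal values for its 14629 genes. The submitters' processing notes name Subread, DESeq2 1.32.0 and the build mm10. All 6 libraries, 2 per medium, were fitted with the quasi-likelihood test of edgeR 4.0.16 (R 4.3.3) after filterByExpr (minimum count 10, total 15) and TMM scaling, with Benjamini-Hochberg adjustment at 0.05. Each standard error is the size of the log2 fold change over the root of F. Groups of 0 counts were set to a floor of 3 counts, and 1 to 3 counts got a 95% interval. Simulated data held 14763 tested genes with a shared dispersion, and changes were set only in well-counted genes. Of 65 changes of 0.5 in log2 units, 72.3% were recovered, as were 100% of 65 changes of 1 and 70 of 2. Recovery at few counts was not assessed. Alternatives included DESeq2 1.42.0 and limma 3.58.1. Positions follow GENCODE M21 on GRCm38, the assembly of mm10, which 14747 of 15055 tested symbols matched. Figures used matplotlib 3.10.9.

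The members and lists were chosen with earlier results of these data known. Names follow a rule: the 12 largest rises and 12 largest falls with at least 10 CPM and no overlap outside the acute phase, the 10 largest rises and falls in CPM, up to 5 called members per list and direction and 2 others, and 4 set genes. Chosen after their values were seen were Ackr3, Ackr4, Angptl2, Antxrl, Anxa8, Ccl6, Cd274, Cd44, Cdsn, Cxcl16, Fam180a, Fgf14, Fkbp5, Gas5, Gfpt1, Gfpt2, Id1, Id2, Id3, Il6st, Itgb1, Lce1g, Lif, Ly6f, Map2, Met, Nalcn, Pla2g4a, Prrx1, Ptpn1, Rela, Skil, Slurp1, Socs2, Sprr1a, Sprr2a1, Sprr2b, Stat3, Tgfb1, Tgfbi, Tgif1, Tnfrsf1a, Vcam1, Wnt5a and Xdh.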

Additional observations from a re-analysis of the deposited data

How the results depend on the processing

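Of the genes named in the text, 233 tested ones were followed under 14 alternatives and the others were not. Among those followed, 218 of the 226 called ones kept direction and call wherever they were tested. Of them, 10 (Antxrl, Gda, Lce1g, Ly6c2, Nos2, Npas2, Npy4r, Prg4, Sprr2b and Steap4) were not tested in the authors' filtered table. Angptl2, Col3a1, Fgf14, Ftl1, Pdpn, Rela, Slurp1 and Tfrc lost the call under at least 1 alternative, and no direction reversed in these tests. Leaving out 1 library at a time gave 1891 to 2931 genes higher, 2109 to 2957 lower, 704 to 779 at least 2-fold higher and 541 to 696 at least 2-fold lower, against 2995, 2893, 815 and 620 with all. The lowest, 1891, was without control replicate 1, with fewer samples and the lone library assumed to vary like the other groups. DESeq2's Wald test called 2092 higher and 2318 lower. With library totals alone it was 3305 and 2663, and with DESeq2 size factors 2863 and 3030. Deviations of same-numbered libraries were nearly uncorrelated (-0.041, 0.005 and 0.069), which does not tell if those libraries were handled together. With the replicate block 3091 genes were higher, 2966 lower, 818 at least 2-fold higher and 614 at least 2-fold lower. With the block 10 of the 12 RNA quality genes were higher. The depth sets a floor for rare genes, since 25 tested genes had no counts in control medium and 6 none in 4T1 medium.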

Other observations

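Some genes known from the cornified layer of skin were higher in 4T1 medium, and some genes known from epithelia were lower. Sprr2a1, a small proline-rich envelope protein, was at 0.934 and 1.04 against 15.95 and 19.2 CPM, Sprr1a at 0.727 and 1.26 against 15.7 and 18.4 CPM and corneodesmosin (Cdsn), an adhesive protein of keratinocytes, at 72.5 and 69.4 against 377 and 321 CPM. Their log2 fold changes were 4.16, 4.16 and 2.30. Sprr2b and Lce1g were without counts in the control libraries, which makes them at least 100.7-fold and at least 73.36-fold higher. The keratin Krt19 fell by 2.12 and E-cadherin (Cdh1) by 2.74. Cdh1 had few counts, 31 and 17 in the control libraries and 6 and 1 in the 4T1 libraries. The Sprr genes, Lce1g and Cdsn were chosen after their values were seen, and Sprr2 genes are near-identical copies. The largest fitted fall was in Fam180a, with 121 counts in control medium and none in 4T1 medium, at least 40.87-fold lower. Map2, a neuronal microtubule protein, fell by 4.70 on the log2 scale.

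The authors' filtered table leaves out many of the strongest rises. Of the 324 genes at least 4-fold higher in 4T1 medium, 122 (37.7%) have no row in it, against 15 of 205 (7.32%) at least 4-fold lower and 2.93% of all tested genes. At least 16-fold, the numbers were 59 of 97 (60.8%) and 3 of 27. Ly6c2, Gda, Prg4 and Npy4r are among the genes without a row.

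Col1a2, the partner chain of type I collagen, was listed at 1.08 CPM per kb of exon in control medium, against 2105 for Col1a1. Ftl1 was likewise listed at 8.93, against 412.6 for Fth1. The cause of these gaps was not tested, and the change of Ftl1 given above is uncertain. Protein-coding genes at least 2-fold higher spanned a median of 21.68 kb, those at least 2-fold lower 36.48 kb and all tested 24.32 kb.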
